A study of Mus musculus with 18 samples.

Results

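Transcripts of 9 genes of the primitive red cell programme were followed through 18 RNA sequencing libraries. They were 6 globin genes (Hba-x, Hba-a1, Hba-a2, Hbb-y, Hbb-bh1 and Hbb-bt) and 3 genes that govern red cell maturation and heme supply (Gata1, Klf1 and Alas2). The 9 genes were chosen by symbol, and all 9 were found among the 53465 gene identifiers of the expression table. The libraries came from 9 mouse embryos at embryonic day 9 with 20 to 24 somites. Of these embryos, 5 were labelled Control and 4 were labelled DKO, in which Meis1 and Meis2 had been deleted conditionally with Delta1Cre, a Cre recombinase named for the Delta1 gene of the presomitic mesoderm. Each embryo was divided into a posterior piece, made of the axial bud with the 10 to 12 newest somites, and an anterior piece, made of the older somite-bearing axis. The alleles of the control embryos, whether they carried Cre, and the strain are not given in the sources used here. Every embryo gave both pieces, so each piece is compared between 5 control and 4 DKO libraries.

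At this stage of mouse development the blood holds primitive erythroid cells, which arise in the yolk sac and enter the embryo with the circulation. They make embryonic hemoglobin from zeta-like (Hba-x) and alpha chains paired with the embryonic beta-like chains epsilon y (Hbb-y) and beta h1 (Hbb-bh1). The transcription factors GATA1 and KLF1 drive globin and heme genes, and ALAS2 is the erythroid enzyme that starts heme synthesis. In pieces of whole tissue, fewer red cells and less RNA per red cell cannot be told apart.

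The alpha-like members lie together on the plus strand of chromosome 11 of GRCm38, with Hba-x at chr11:32276400-32278116, Hba-a1 at chr11:32283511-32284465 and Hba-a2 at chr11:32296489-32297298. The beta-like members lie on the minus strand of chromosome 7, with Hbb-bt at chr7:103812524-103813996, Hbb-bh1 at chr7:103841637-103843164 and Hbb-y at chr7:103851749-103853216. Klf1 is on chromosome 8 (chr8:84901928-84905291, plus strand), and Gata1 (chrX:7959260-7978071, minus strand) and Alas2 (chrX:150547375-150570638, plus strand) are on the X chromosome. All 9 are annotated as protein-coding, and each value below is for the whole gene.

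Because the members varied together between libraries (described below), the bases before their RefSeq transcription starts are shown for 6 members of different roles. Each sequence is the 250 bases upstream of the RefSeq start on GRCm38.p6, read along the gene's own strand. Capitals mark 4 kinds of motif searched on both strands. The GATA motif was AGATAA, and the forms with T as the first base, G as the last base or both were counted as the same motif. The KLF-type motif was CACCC. The CCAAT box was searched by those letters, and the TATA box was searched as TATAAA. On the strand printed, a match on the other strand appears as its reverse complement.
Hba-x: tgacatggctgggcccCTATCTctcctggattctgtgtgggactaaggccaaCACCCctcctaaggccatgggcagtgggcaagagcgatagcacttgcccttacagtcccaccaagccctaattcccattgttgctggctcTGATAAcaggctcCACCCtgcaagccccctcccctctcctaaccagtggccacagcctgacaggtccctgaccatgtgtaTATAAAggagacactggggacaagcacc
Hba-a2: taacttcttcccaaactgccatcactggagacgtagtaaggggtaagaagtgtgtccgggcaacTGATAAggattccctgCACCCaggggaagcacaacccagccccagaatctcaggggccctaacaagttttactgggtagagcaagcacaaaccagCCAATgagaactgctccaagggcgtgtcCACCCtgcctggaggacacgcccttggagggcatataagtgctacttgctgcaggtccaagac
Hbb-y: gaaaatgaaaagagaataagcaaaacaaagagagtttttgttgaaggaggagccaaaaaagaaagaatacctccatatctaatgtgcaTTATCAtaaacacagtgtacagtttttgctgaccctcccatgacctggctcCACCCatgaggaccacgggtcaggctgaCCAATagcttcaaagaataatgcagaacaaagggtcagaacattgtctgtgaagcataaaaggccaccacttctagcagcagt
Hbb-bt: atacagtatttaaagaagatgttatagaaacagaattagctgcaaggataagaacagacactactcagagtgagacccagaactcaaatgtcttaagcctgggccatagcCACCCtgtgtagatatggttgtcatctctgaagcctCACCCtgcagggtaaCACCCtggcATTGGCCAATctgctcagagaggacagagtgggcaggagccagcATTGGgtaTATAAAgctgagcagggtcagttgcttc
Klf1: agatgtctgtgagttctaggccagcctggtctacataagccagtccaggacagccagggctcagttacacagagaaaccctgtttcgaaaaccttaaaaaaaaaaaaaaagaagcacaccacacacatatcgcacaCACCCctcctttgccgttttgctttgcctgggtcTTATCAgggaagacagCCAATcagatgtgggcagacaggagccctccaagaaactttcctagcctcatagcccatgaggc
Alas2: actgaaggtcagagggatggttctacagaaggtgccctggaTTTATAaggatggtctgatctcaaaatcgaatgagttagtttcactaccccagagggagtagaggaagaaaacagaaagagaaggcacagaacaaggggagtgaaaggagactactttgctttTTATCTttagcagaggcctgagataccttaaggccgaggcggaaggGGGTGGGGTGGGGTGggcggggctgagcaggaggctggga
In order, these windows are chr11:32276350-32276599 (plus), chr11:32296242-32296491 (plus), chr7:103853208-103853457 (minus), chr7:103813924-103814173 (minus), chr8:84901732-84901981 (plus) and chrX:150547167-150547416 (plus). The gene spans given above are from GENCODE, and each of these windows reaches into its gene's span. That of Hba-x runs to base 32276599, past the span's start at 32276400. A promoter was matched for 8 of 9 members, all but Hbb-bh1. The window of Gata1 (chrX:7967911-7968160, minus) lies wholly inside its gene's span. A GATA motif was present in 6 of the 8, the exceptions being Hbb-bt and Gata1, against 26.5% of 32851 RefSeq promoters of the same length. CACCC was present in 8 of 8, against 52.0% of all promoters. CCAAT was found in 5 of 8 against 33.8%, and TATAAA in 3 of 8 against 12.4%. The Hba-a1 and Hba-a2 windows hold nearly the same sequence, with TGATAA from base -183 and from base -186. The GATA, CACCC and CCAAT counts include that sequence for both genes. CCACACCC, a longer form that overlaps CACCC, was in 0 of 8 against 3.20%. Hba-x and Hbb-bt have TATAAA at the same distance, from base -28 to base -23 before the start. The third match, in Alas2, is on the other strand from base -209 to base -204, and so not at that distance. These matches describe letters in the windows and no binding was measured.

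Total expected counts ranged from 12.7 to 38.2 megacounts per library, and the 3-count floor was 0.0786 to 0.237 CPM. Levels are in CPM, a gene's counts relative to each megacount of its library, with library sizes adjusted by TMM (the trimmed mean of M values). Meis1 was at 113 to 135 CPM in anterior controls and 89.8 to 111 CPM in anterior DKO, and at 59.6 to 99.9 and 46.7 to 72.0 CPM in the posterior groups. Meis2 was at 177 to 203 and 130 to 157 CPM in the anterior groups and at 117 to 162 and 91.2 to 116 CPM in the posterior groups. Its DKO libraries thus lay below its controls in both pieces. Control embryo 1 carries a female label, but its pieces held Y-linked RNA at a summed 151 to 161 CPM and Xist at 0.200 to 0.340 CPM, which are the levels of the male-labelled libraries. Tbx6 and T, markers of the axial bud, averaged 32.7 and 95.5 CPM in posterior controls against 0.354 and 4.15 CPM in anterior controls.

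The embryonic globins were the most abundant of the 9 genes in every library, and their order per kilobase was the same throughout. Per kilobase of annotated exon, the mean level over 18 libraries was 1320 CPM for Hbb-y, 1014 for Hbb-bh1, 755 for Hba-x, 476 for Hba-a2 and 271 for Hba-a1. That order held in 18 of 18 libraries for each neighbouring pair, but it depends on the annotated exon lengths. Before division by length, Hba-x (938 bases) averaged 708 CPM and Hbb-bh1 (613 bases) 621 CPM. Hba-a1 then exceeded Hba-a2 in control embryo 3, at 257 against 236 CPM anteriorly and 262 against 243 CPM posteriorly. Alas2 (9.34 CPM per kilobase), Hbb-bt (4.47), Klf1 (3.35) and Gata1 (1.49) followed. Alas2 exceeded Hbb-bt in 17 of 18 libraries and Klf1 exceeded Gata1 in 18 of 18, but Hbb-bt exceeded Klf1 in only 12 of 18. The adult-type beta gene Hbb-bt was thus far below Hbb-y and Hbb-bh1 in these embryos. Together the 6 globins took 0.117% to 0.575% of all counts.

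**Figure D1:**
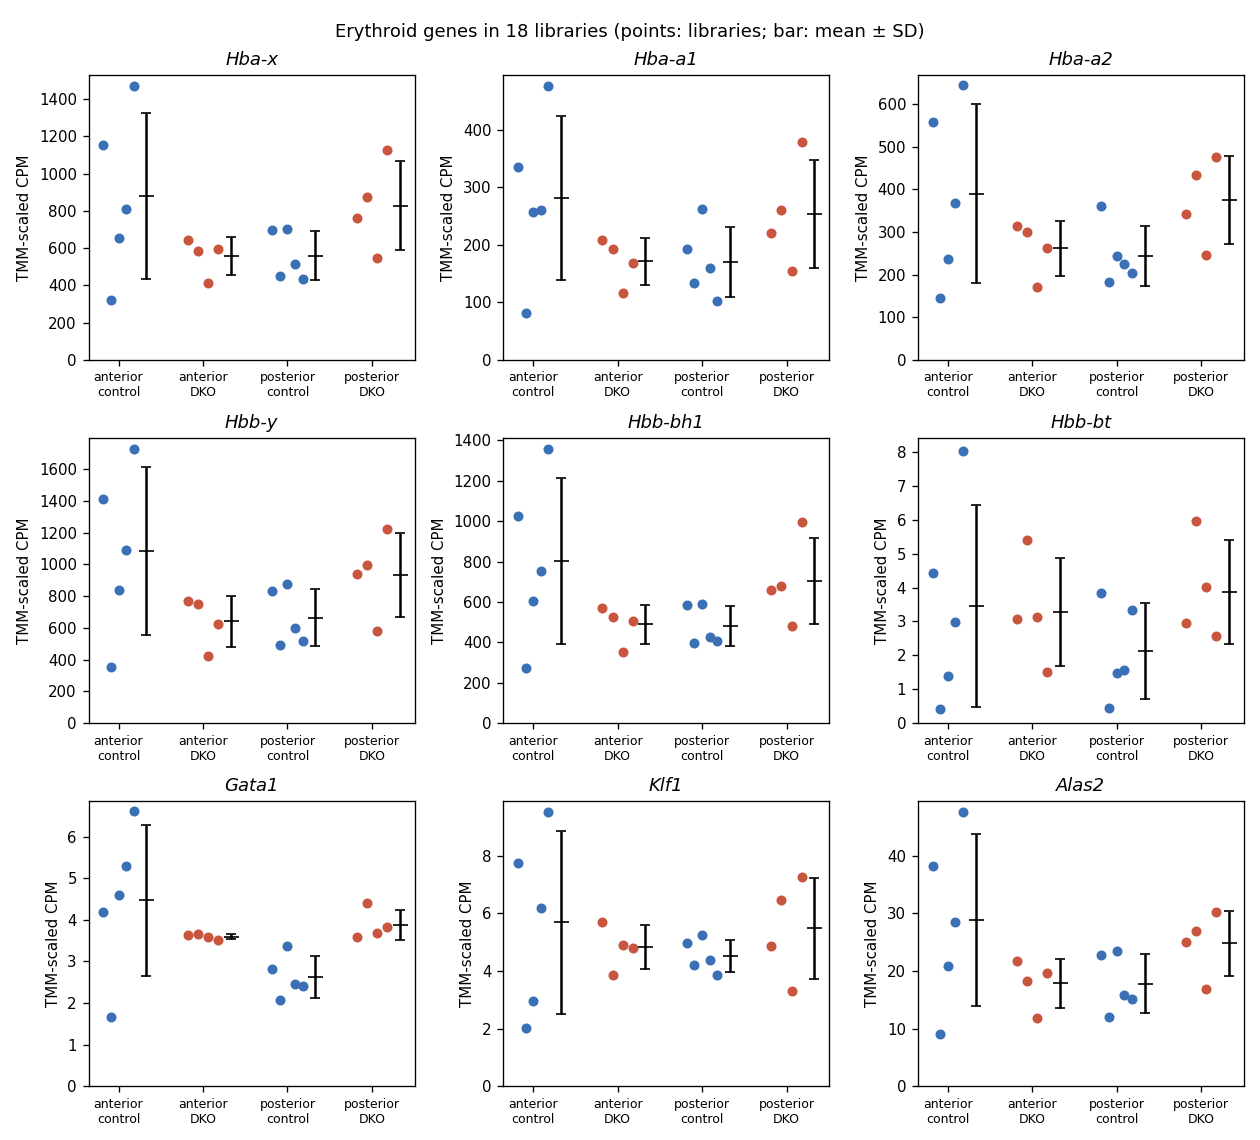
TMM-scaled CPM (vertical axes, from 0) of the 9 genes in each library; blue points are control and red points DKO libraries, and the black bar is the group mean ± SD (n = 5 control, n = 4 DKO). The anterior controls spread most, with Hbb-y from 354 to 1728 CPM, and the anterior DKO libraries lie inside that spread.

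The DKO effect on the anterior piece was the first comparison. All 9 genes had a lower mean in anterior DKO than in anterior controls, and none of the differences passed the test. Among the beta-like chains, Hbb-y was at 1412, 354, 837, 1091 and 1728 CPM in anterior controls 1 to 5 and at 768, 751, 422 and 625 CPM in anterior DKO embryos 1 to 4. Control embryo 2, which had 20 somites, was below every DKO library, and the other controls were above them. The means were 1084 ± 528 (SD, n = 5) and 642 ± 160 CPM (n = 4), and the fitted log2 fold change was -0.76 (SE 0.363, edgeR adjusted p = 0.409). Hbb-bh1 was at 1025, 273, 604, 755 and 1358 CPM in controls, against 571, 524, 350 and 507 CPM in DKO. It showed the same arrangement, with control 2 lowest and the DKO values between it and the other controls (-0.72, SE 0.356, adjusted p = 0.425).

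For the alpha-like chains, anterior Hba-x was at 1151, 319, 655, 810 and 1472 CPM in controls, against 645, 586, 412 and 592 CPM in DKO. The difference was -0.66 on the log2 scale (SE 0.344, adjusted p = 0.454). Hba-a1 was at 335, 82.2, 257, 261 and 476 CPM in controls, against 209, 193, 116 and 169 CPM in DKO (-0.72, SE 0.377, adjusted p = 0.457). As with Hba-x, only control 2 lay below the DKO libraries. Hba-a2 was at 558, 145, 236, 369 and 644 CPM in controls, against 313, 300, 171 and 261 CPM in DKO (-0.58, SE 0.374, adjusted p = 0.553), where control 3 also fell inside the DKO range.

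Of the regulators, anterior Alas2 was at 38.2, 9.10, 20.9, 28.4 and 47.6 CPM in controls, against 21.7, 18.3, 11.8 and 19.7 CPM in DKO (-0.68, SE 0.377, adjusted p = 0.485). Gata1 was at 4.19, 1.67, 4.59, 5.29 and 6.61 CPM in controls, against 3.63, 3.65, 3.58 and 3.53 CPM in DKO. Its 4 DKO values were close together and lay inside the control range (-0.30, SE 0.301, adjusted p = 0.722). Klf1 was at 7.76, 2.01, 2.96, 6.21 and 9.52 CPM in controls, against 5.72, 3.86, 4.91 and 4.80 CPM in DKO (-0.23, SE 0.381, adjusted p = 0.845). Hbb-bt, on 10 to 171 counts per library, averaged 3.45 ± 2.98 CPM in controls and 3.28 ± 1.60 CPM in DKO (-0.08, SE 0.629, adjusted p = 0.975). The signs for Hbb-bt and Klf1 turned when control embryo 5 was left out, to 0.50 and 0.04, and that of Hbb-bt also without control embryo 1 (0.04) or DKO embryo 4 (0.17).

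Control embryo 5, the highest anterior library for each of the genes listed above by library, also bore on the size of the other anterior differences. Without it the log2 fold change was -0.39 for Hba-x, -0.44 for Hba-a1, -0.32 for Hba-a2, -0.44 for Hbb-bh1, -0.42 for Alas2 and -0.11 for Gata1, each smaller by over 1.5 times. Hbb-y went to -0.52. Without control embryo 2, the lowest, Gata1 was at -0.52 (edgeR adjusted p = 0.233) and Klf1 at -0.46, and Klf1 also moved by over 1.5 times without control 1 (-0.09), control 3 (-0.38) or DKO 2 (-0.14).

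By edgeR, 0 of 9 genes passed the adjusted threshold of 0.05 in the anterior piece, against 0.0394% of all 15238 genes tested. At an unadjusted p below 0.05 there were also 0 of 9, against 13% of all genes, and DESeq2 called 0 of 9. The groups overlapped for 9 of 9 members, while 5.07% of all genes had groups that did not overlap. The median log2 fold change was -0.66 over the members and 0.00 over all genes tested.

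In the posterior piece the direction was the opposite: all 9 genes had a higher mean in DKO than in control. Again none passed the test after adjustment. Gata1, the central erythroid transcription factor, was at 2.82, 2.06, 3.38, 2.45 and 2.42 CPM in posterior controls 1 to 5 and at 3.60, 4.40, 3.68 and 3.84 CPM in posterior DKO embryos 1 to 4. Every DKO library was above every control, and Gata1 was the single member whose groups did not overlap, against 4.29% of all genes. The log2 fold change was 0.56 (SE 0.172, edgeR adjusted p = 0.367). Klf1 was at 4.96, 4.21, 5.25, 4.39 and 3.86 CPM in controls, against 4.88, 6.46, 3.31 and 7.27 CPM in DKO, with overlapping groups (0.27, SE 0.212, adjusted p = 0.600). Alas2 was at 22.7, 11.9, 23.5, 15.9 and 15.1 CPM in controls, against 25.0, 26.9, 16.9 and 30.3 CPM in DKO (0.47, SE 0.216, adjusted p = 0.454). For Alas2, DKO embryo 3, with 20 somites, was the single DKO library inside the control range.

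Posterior Hba-x was at 696, 449, 702, 515 and 432 CPM in controls, against 761, 876, 548 and 1125 CPM in DKO (0.57, SE 0.207, adjusted p = 0.426). Hba-a2 was at 362, 184, 243, 225 and 203 CPM in controls, against 343, 435, 245 and 477 CPM in DKO (0.62, SE 0.218, adjusted p = 0.415). Hba-a1 was at 193, 134, 262, 160 and 102 CPM in controls, against 220, 260, 154 and 379 CPM in DKO (0.57, SE 0.281, adjusted p = 0.473). Among the alpha-like chains, DKO embryo 3 had the lowest DKO value each time and DKO embryo 4 the highest.

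Posterior Hbb-y was at 832, 494, 875, 599 and 515 CPM in controls, against 938, 993, 582 and 1220 CPM in DKO (0.49, SE 0.221, adjusted p = 0.451). Hbb-bh1 was at 584, 396, 591, 426 and 407 CPM in controls, against 660, 677, 481 and 996 CPM in DKO (0.55, SE 0.196, adjusted p = 0.415). For both, 3 DKO libraries exceeded every control and DKO embryo 3 did not. Hbb-bt averaged 2.13 ± 1.42 CPM in controls and 3.87 ± 1.52 CPM in DKO (0.86, SE 0.482, adjusted p = 0.501). Its adult-type neighbour Hbb-bs averaged 6.63 ± 2.49 and 12.4 ± 2.92 CPM (0.90, SE 0.257, adjusted p = 0.336).

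By edgeR, 0 of 9 genes passed in the posterior piece, against 0.0126% of 15936 genes tested, and DESeq2 also called 0 of 9. At an unadjusted p below 0.05 there were 6 of 9, against 11% of all genes. As the members varied together between libraries (described below), these are not 6 independent results. The median log2 fold change was 0.56 over the members and 0.01 over all genes. Without DKO embryo 4 the difference fell by over 1.5 times for 5 members, to 0.37 for Hba-x, 0.30 for Hba-a1, 0.33 for Hbb-y, 0.32 for Hbb-bh1 and 0.10 for Klf1. Klf1 was at 0.45 without DKO embryo 3, and Hbb-bt at 0.57 without DKO embryo 2.

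**Figure D2:**
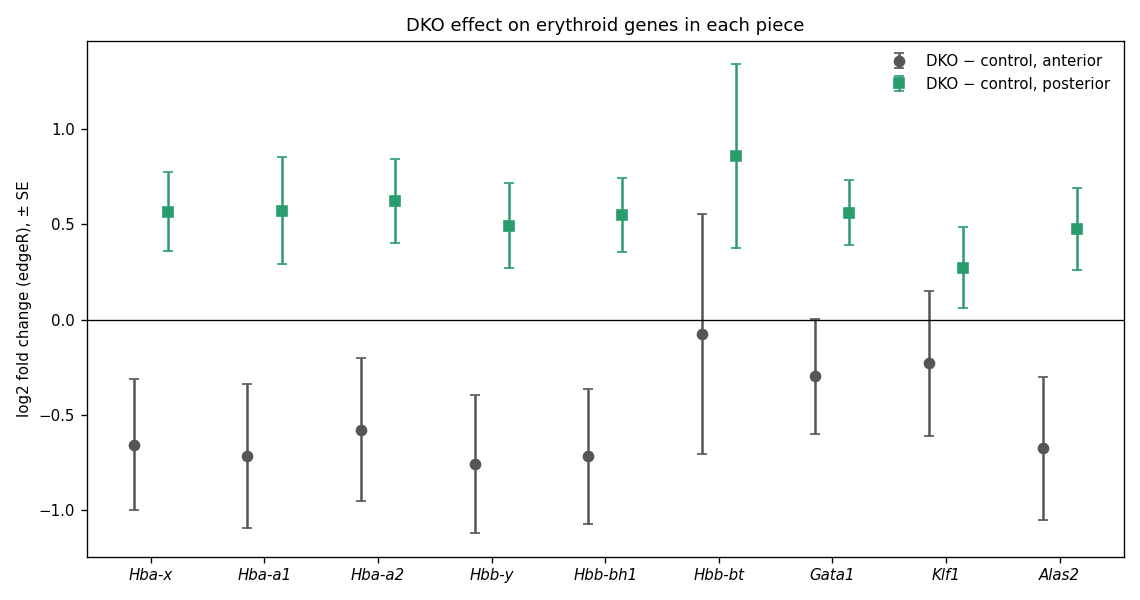
Log2 fold change of DKO over control (vertical axis) with its SE for each gene, anterior in grey circles and posterior in green squares, from separate edgeR fits. The anterior values run from -0.76 to -0.08 and the posterior values from 0.27 to 0.86, and none passed the adjusted threshold.

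The difference between the posterior and the anterior DKO effect was tested directly over all 18 libraries. It was positive for 9 of 9 members, from 0.50 for Klf1 to 1.29 for Hba-a1 on the log2 scale. Hbb-bh1 had 1.27 (SE 0.443), Hba-x 1.22 (SE 0.438) and Gata1 0.86 (SE 0.362). By edgeR 0 of 9 passed after adjustment, each with an adjusted p of 0.999, and 0% of 16428 genes did. DESeq2 called 0 of 9, and 7 of 9 had an unadjusted p below 0.05 against 3.45% of all genes. The members varied together between libraries and were chosen with earlier results of these data known. These are therefore not 7 independent results. With the embryo as a block, the members' adjusted p-values were 0.851 to 0.901. The Klf1 value was 0.33 with the block, 0.19 without control embryo 5 and 0.04 with both changes, and without DKO embryo 2 it was 0.32. Without control embryo 5 Hbb-bt went from 0.94 to 0.54, and with the block Hba-a1 went from 1.11 to 0.72. The anterior and posterior effects were thus not shown to differ for any single member.

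The pieces of the same embryo were then compared. In all 4 DKO embryos the posterior piece held more embryonic globin RNA than the anterior piece, whereas the control embryos were divided. For Hbb-y, the log2 ratio of posterior to anterior level was 0.29, 0.40, 0.46 and 0.96 in DKO embryos 1 to 4. In control embryos 1 to 5 it was -0.76, 0.48, 0.06, -0.87 and -1.75. Hba-x, Hba-a1, Hba-a2, Hbb-bh1 and Alas2 were likewise higher in the posterior piece of 4 of 4 DKO embryos. They were higher there in 2 of 5 control embryos, or 1 of 5 for Hbb-bh1.

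In DKO embryos, the fit without a block called 0 of 9 members between the pieces, against 18.5% of 15777 genes. At an unadjusted p below 0.05 there were 5 of 9, against 29.4%, and DESeq2 called 0. Without the block, 4 members were called when DKO embryo 3 was left out, against 13.7% of all genes, and 0 when any other DKO embryo was. With the embryo as a block, which the matched labels allow, 6 of 9 members rose in the posterior piece, against 19.0% of all genes called in either direction. Here too the members varied together, so that these are not 6 independent results. Hba-x rose by 0.54 (SE 0.105, edgeR adjusted p = 0.00708), Hbb-y by 0.53 (SE 0.106, adjusted p = 0.00833) and Alas2 by 0.47 (SE 0.0972, adjusted p = 0.00944). Hba-a2 rose by 0.51 (adjusted p = 0.0102), Hbb-bh1 by 0.50 (adjusted p = 0.0154) and Hba-a1 by 0.52 (adjusted p = 0.0422). Over the alternatives that include the fit without the block, the adjusted p of Hba-x ranged from 0.00534 to 0.227 and that of Hba-a1 from 0.0272 to 0.497. Gata1 (0.11, SE 0.157, adjusted p = 0.710), Klf1 (0.15, SE 0.231, adjusted p = 0.716) and Hbb-bt (0.28, SE 0.187, adjusted p = 0.372) did not pass with the block. The unblocked groups overlapped for 9 of 9 members, and 23.5% of all genes had groups that did not. With the block and each DKO embryo left out in turn, 5 or 6 members were called, against 12.5% to 19.7% of all genes. The call of Hba-a1 was lost without DKO embryo 2 (adjusted p = 0.102) or DKO embryo 3 (0.0738). Without DKO embryo 4 Hba-a1 was called at 0.30 (SE 0.0771, adjusted p = 0.0344), smaller by over 1.5 times.

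Genes of visceral endoderm and yolk sac, where primitive red cells form, were compared between the pieces of DKO embryos as well. Of 7 tested, 6 were higher posteriorly without the block (median log2 fold change 0.68, 1 called), and 5 with it (median 0.69, 1 called). The gene called was Afp, alpha-fetoprotein, at 0, 0.0515, 0.866 and 0.864 CPM in the anterior pieces of DKO embryos 1 to 4 and at 18.9, 12.0, 1.28 and 5.02 CPM in their posterior pieces. It rose by 4.45 without the block (SE 0.984, edgeR adjusted p = 0.00971) and by 4.18 with it (SE 1.02, adjusted p = 0.0218). Afp was higher posteriorly in 4 of 4 DKO embryos, and its part in the rise of the globins was not tested. In controls 1 to 5 Afp was at 0.113, 8.21, 0, 0 and 1.43 CPM anteriorly and 2.35, 5.41, 0.757, 1.63 and 1.44 CPM posteriorly, higher posteriorly in 4 of 5 (1.19 with the block, SE 0.696, adjusted p = 0.220). The yolk sac list was higher posteriorly for 5 of 6 in controls with the block (median 0.33, 0 called), where the 9 members had lower posterior means. The 1 of 7 called is near the share of all genes called, 18.5% without the block and 19.0% with it. Of the endothelial genes, 5 of 12 were called lower posteriorly with the block and 0 higher, against the same 19.0%.

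In control embryos all 9 members had a lower mean in the posterior piece, and 0 of 9 were called without a block, against 25.4% of 15294 genes. At an unadjusted p below 0.05 there were 2 of 9, against 35.5%, and DESeq2 called 0. With the embryo as a block 1 of 9 passed, against 33.6% of all genes: Gata1 fell by 0.67 (SE 0.229, edgeR adjusted p = 0.0446, range over alternatives 0.00705 to 0.301). The blocked values were -0.56 (SE 0.249, adjusted p = 0.108) for Hbb-y and -0.51 (SE 0.249, adjusted p = 0.147) for Hba-x. These counts depended on single embryos. Without the block, 6 members were called when control embryo 2 was left out, against 22.2% of all genes, and 0 when any other control was. With the block, 7 were called without control embryo 2 (30.6% of all genes) and 1 without control embryo 3 (28.3%). With the block, 0 were called without control embryos 1 (26.1%), 4 (27.6%) or 5 (30.9%), and the call without control embryo 3 was Alas2, so that Gata1 was called in 1 of 5 cases. The size of the unblocked differences depended on control embryo 5, without which that of Hbb-y went from -0.71 to -0.39, that of Hba-x from -0.66 to -0.31 and that of Klf1 from -0.32 to 0.00. With the block, leaving out that embryo took Hbb-y from -0.56 to -0.27, Hba-x from -0.51 to -0.19 and Klf1 from -0.18 to 0.11. The groups overlapped for 9 of 9 members, against 20.1% of all genes with groups that did not.

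**Figure D3:**
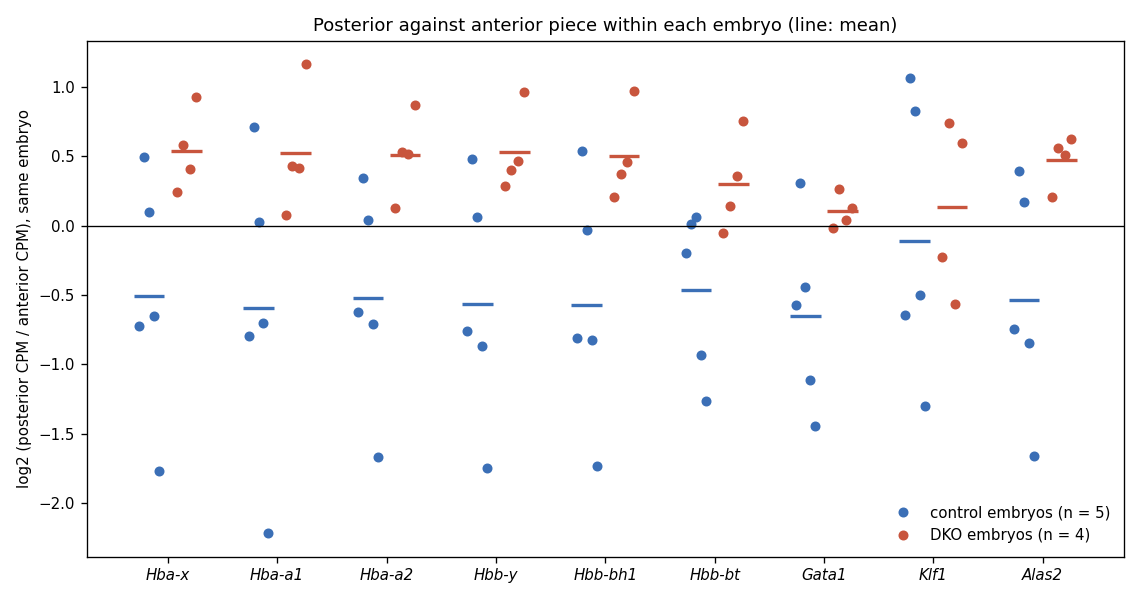
Log2 ratio of the posterior to the anterior CPM of the same embryo (vertical axis) for each gene; points are embryos (blue control, red DKO), short lines are means, and 0 means equal levels. For Hbb-y the DKO embryos lie between 0.29 and 0.96 and the control embryos between -1.75 and 0.48.

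Within each group, the embryo with the fewest somites usually had the lowest levels, but this rests on 1 embryo per genotype. The control group and the DKO group each held 1 embryo with 20 somites (control 2 and DKO 3). That embryo was the lowest of its group for 9 of 9 members in the anterior controls and 6 of 9 in the anterior DKO. In the posterior pieces it was the lowest for 6 of 9 members in the controls and 7 of 9 in the DKO. The members varied together, so these counts are not independent. The other embryos did not all follow somite number. Anterior Hbb-y was at 837 CPM in control 3 (24 somites) and 1091 CPM in control 4 (21 somites), whereas posterior Hbb-y was at 875 and 599 CPM in them. A relation of level to somite number was not tested. With somite number as a covariate, edgeR still called 0 of 9 members in each piece between genotypes. Over all genes that fit called more than the fit without the covariate, as given with the other alternatives below.

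The composition of the globin RNA was compared between the pieces of an embryo. The ratio of Hbb-bh1 to Hbb-y counts ranged only from 0.675 to 0.829 over 18 libraries, while the level of Hbb-y ranged 4.89-fold. In control embryos 1 to 5 the ratio was 0.725, 0.773, 0.721, 0.692 and 0.786 in the anterior piece and 0.702, 0.802, 0.675, 0.712 and 0.792 in the posterior piece. In DKO embryos 1 to 4 it was 0.744, 0.697, 0.829 and 0.811 anteriorly and 0.704, 0.682, 0.825 and 0.816 posteriorly. The 4 embryos with the highest ratio in the anterior piece (DKO 3, DKO 4, control 5 and control 2) were also the 4 highest in the posterior piece.

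Over the 9 embryos, the log2 ratio in the 2 pieces correlated with Pearson's r = 0.909 (exact permutation p = 0.00201, adjusted 0.0100) and Spearman's rho = 0.8 (exact permutation p = 0.0138, adjusted 0.0637). Without the 2 embryos farthest from the median, DKO 3 and DKO 4, r was 0.822. For the level of Hbb-y, in log2 CPM, the same comparison gave r = 0.0462 (exact permutation p = 0.903, adjusted 0.903), rho = -0.0333 (p = 0.948, adjusted 0.948) and r = 0.0302 without controls 2 and 5. These were 2 of 5 such relations, computed after the values had been seen and adjusted over the 5. Genotypes were pooled in each r. The mean Hbb-y levels lay in opposite order in the 2 pieces, at 1084 CPM in controls and 642 in DKO anteriorly, but 663 and 933 posteriorly. This offset lowers r for the level, and r after removal of genotype means was not computed. The groups hold 5 and 4 embryos, too few for r within each genotype alone, and the difference between the 2 coefficients was not tested.

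The ratio of Hba-x to the sum of Hba-a1 and Hba-a2 ranged from 1.19 to 1.44. Between the pieces of an embryo it gave r = 0.556 (exact permutation p = 0.122, adjusted 0.152), rho = 0.483 (p = 0.194, adjusted 0.323) and 0.324 without DKO 2 and DKO 3. Neither ratio was shown to differ between genotypes, between pieces or with somite number: of 10 exact two-sided permutation tests, 0 had an adjusted p below 0.05. The Hbb-bh1 to Hbb-y ratio was 0.739 ± 0.0389 (SD, n = 5) in anterior controls and 0.770 ± 0.0610 (n = 4) in anterior DKO (exact permutation p = 0.389, adjusted 0.486). In the posterior groups it was 0.736 ± 0.0568 and 0.757 ± 0.0744 (exact permutation p = 0.627, adjusted 0.697). The smallest p these group sizes allow is 0.00794. With somite number, the posterior Hbb-bh1 to Hbb-y ratio had r = -0.568 (exact permutation p = 0.114, adjusted 0.486) and rho = -0.727 (exact permutation p = 0.0320, unadjusted).

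**Figure D4:**
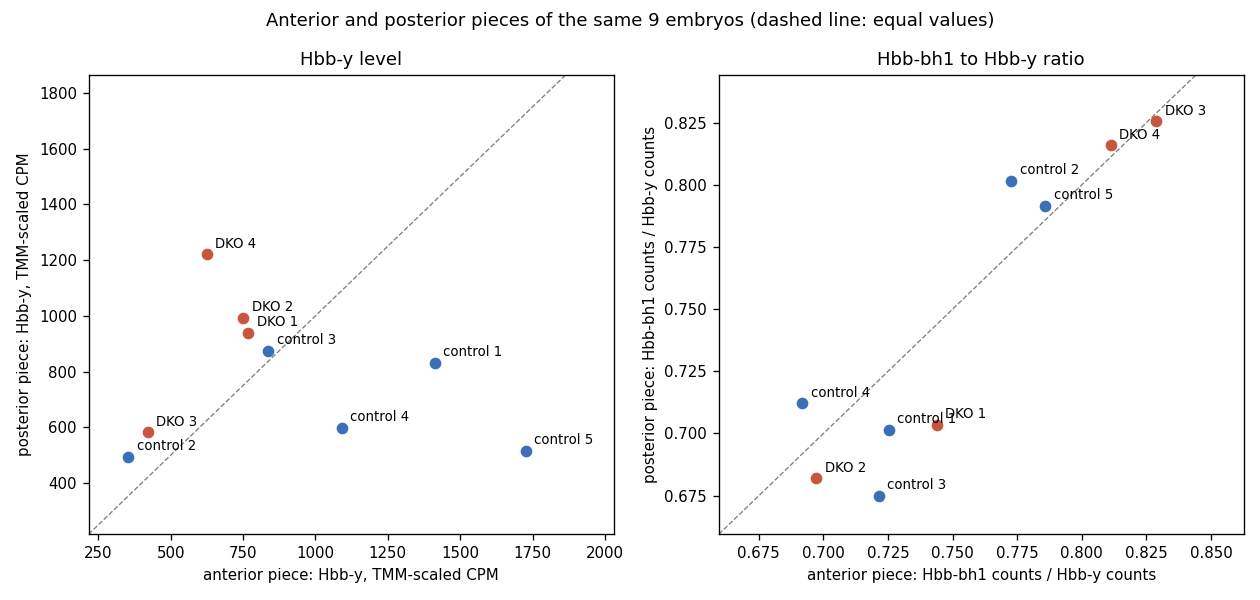
Anterior (horizontal) against posterior (vertical) values of the same 9 embryos, for the Hbb-y level in TMM-scaled CPM (left) and the ratio of Hbb-bh1 to Hbb-y counts (right); blue is control, red is DKO, and the dashed line marks equal values. With genotypes pooled, r was 0.909 for the ratio and 0.0462 for the level, and the difference between these coefficients was not tested. The genotype means of the level lay in opposite order in the anterior and posterior pieces, which lowers its r.

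The members varied together from library to library. After removal of each group's mean, log2 CPM of the 5 globins other than Hbb-bt correlated pairwise at r = 0.875 to 0.993 over the 18 libraries, which come from 9 embryos and share each library's scaling. Alas2 correlated with these globins at 0.937 to 0.985, Klf1 at 0.822 to 0.905 and Gata1 at 0.720 to 0.828. Hbb-bt, the least counted, had 0.535 to 0.731. Among the 16424 genes compared, 50 had r of at least 0.8 with the summed globins, and the median over all genes was 0.00. The 10 outside the members with the highest r included Acp5 (0.953), Blvrb (0.945), Trim10 (0.941), Kel (0.937), Cited4 (0.929), Fech (0.914), Hemgn (0.909), Slc4a1 (0.908) and Mgst3 (0.908). Of these 10, 7 stood in the erythroid lists written for these data, such as Fech, the enzyme of the last step of heme synthesis, and Slc4a1, the red cell anion exchanger. Acp5, Cited4 and Mgst3 stood in none.

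Genes of the red cell membrane and of heme supply mostly had the same direction as the members in both genotype comparisons. Of the red cell membrane and surface list, 16 of 17 genes tested were lower in anterior DKO (median log2 fold change -0.45) and 16 of 18 were higher in posterior DKO (median 0.38). Slc4a1 was at 67.4 ± 34.3 CPM in anterior controls and 43.1 ± 7.39 CPM in anterior DKO, and at 43.4 ± 10.8 and 57.7 ± 10.8 CPM in the posterior groups. Heme synthesis and iron uptake genes were lower for 12 of 16 in anterior DKO (median -0.13) and higher for 13 of 16 in posterior DKO (median 0.16). Red cell enzymes and chaperones were lower for 7 of 9 (median -0.03) and higher for 8 of 9 (median 0.22). By edgeR none of these genes passed the adjusted threshold between genotypes. At an unadjusted p below 0.05 there were 2 of 17, 3 of 16 and 1 of 9 in the anterior piece, in the order of the lists above, against 13% of all genes. In the posterior piece there were 5 of 18, 7 of 16 and 5 of 9, against 11% of all genes. Genes of these lists varied with the summed globins (median r 0.86, 0.64 and 0.87), so the counts are not independent of the members.

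The list of other erythroid transcription factors, many of which also act in other cells, had the direction of the members in the anterior piece and was divided in the posterior piece. It was lower for 13 of 14 in anterior DKO (median -0.19), and higher for 7 of 14 in posterior DKO (median 0.04), with 0 called by edgeR and 1 and 4 of 14 at an unadjusted p below 0.05 (all genes 13% and 11%). Between pieces its members moved both ways in either genotype: Lmo2, a partner of the GATA1 complex, rose posteriorly by 0.90 in controls (edgeR adjusted p = 1.84e-05) and by 1.11 in DKO (adjusted p = 0.000132). Myb fell posteriorly by 0.92 in controls (adjusted p = 0.00369) and by 1.20 in DKO (adjusted p = 0.000829). The counts of called genes were 2 higher and 3 lower of 14 in controls, against 25.4% of all genes, and 3 higher and 3 lower of 14 in DKO, against 18.5%. Between pieces, most of the membrane list had opposite signs in the 2 genotypes. In controls it was lower posteriorly for 16 of 17 (median -0.63), with 1 called higher and 2 lower against 25.4% of all genes. In DKO it was higher for 15 of 18 (median 0.37), with 1 called higher and 0 lower against 18.5%. With the block the called genes were 1 higher and 5 lower in controls, against 33.6%, and 3 higher and 2 lower in DKO, against 19.0%. The difference between genotypes was positive for 17 of 18, with 0 called by edgeR and 8 of 18 at an unadjusted p below 0.05 against 3.45% of all genes. The gene called higher in both genotypes was Dmtn, against the direction of its list in controls. Dmtn rose posteriorly by 1.02 in controls (adjusted p = 0.00248) and by 1.39 in DKO (adjusted p = 3.63e-05). Add2 fell posteriorly by 1.07 in controls (adjusted p = 0.00541).

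Markers of other tissues were read beside these values, and their part in the results was not tested. The visceral endoderm and yolk sac genes were higher in posterior DKO than in posterior controls for 6 of 7 tested (median log2 fold change 0.55, 0 called by edgeR, 3 of 7 at an unadjusted p below 0.05 against 11% of all genes). Their summed level was 9.61 to 43.0 CPM in posterior DKO, 9.80 to 16.4 CPM in posterior controls, 5.16 to 31.1 CPM in anterior controls and 7.21 to 16.2 CPM in anterior DKO. The posterior difference of Afp between DKO and control was not past the threshold (1.99, SE 0.659, adjusted p = 0.392). DKO embryo 4, highest for 5 of the globins in that group, was below DKO embryos 1 and 2 for Afp. Over the 18 libraries, 8 genes of that list had a median r of -0.37 with the summed globins after removal of group means. Each of the 10 genes had more than 3 counts in at least 1 library.

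Endothelial genes were lower in posterior DKO for 10 of 12 (median -0.20) and lower in anterior DKO for 8 of 12 (median -0.09), with 0 called by edgeR in either and 0 and 4 of 12 at an unadjusted p below 0.05, against 11% and 13% of all genes. Their summed level was 396 to 448 CPM in anterior controls, 357 to 449 CPM in anterior DKO, 247 to 413 CPM in posterior controls and 254 to 366 CPM in posterior DKO. Heart genes, summed, were at 68.4 to 153 CPM in the anterior and 16.5 to 46.1 CPM in the posterior libraries, with 6 of 8 genes called lower posteriorly in controls and 6 of 9 in DKO, against 25.4% and 18.5% of all genes called in either direction. Of the endothelial genes, 5 of 12 were called lower posteriorly in controls and 4 of 12 in DKO. Megakaryocyte genes summed to 5.06 to 11.1 CPM and macrophage and leukocyte genes to 8.20 to 16.2 CPM over all libraries. Somite and axial mesoderm genes were lower in DKO for 7 of 9 anteriorly (median -0.22) and 9 of 12 posteriorly (median -0.43), with 0 called by edgeR and 6 of 9 and 4 of 12 at an unadjusted p below 0.05, against 13% and 11% of all genes. Their summed level was 378 to 446 CPM in anterior controls and 270 to 356 CPM in anterior DKO, and 571 to 684 CPM and 414 to 536 CPM in the posterior groups, so that the groups did not overlap in either piece.

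The split of reads between near-identical globin copies limits what can be said of Hba-a1, Hba-a2 and Hbb-bt singly. Of the 61-base windows of Hba-a1 transcripts, the read length used, 70.4% also occur in Hba-a2, and 87.3% of the Hba-a2 windows occur in Hba-a1. For Hbb-bt 57.5% occur in Hbb-bs, and Hba-x, Hbb-y and Hbb-bh1 share none with another gene tested. Hba-a1 took 33.5% to 44.3% of the summed Hba-a1 and Hba-a2 counts in 16 libraries, but 52.1% and 51.9% in the anterior and posterior pieces of control embryo 3. The share of Hbb-bt in the sum with Hbb-bs ranged from 9.0% to 39.9%.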

How the data were processed

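RNA was poly(A)-selected, and libraries made with the NEBNext kit were sequenced from a single end at 61 bp, per the labels' protocols. The authors deposited expected counts per gene from RSEM, unscaled, with GRCm38, CASAVA and cutadapt also named in the submitters' processing notes. The aligner, tool versions and strand setting are not given in the sources used here. Expected counts were rounded and tested with edgeR 4.0.16 in R 4.3.3 (filterByExpr, TMM, quasi-likelihood F test, Benjamini-Hochberg over all genes tested, threshold 0.05). The SE is the size of the log2 fold change divided by the square root of F. CPM was scaled by TMM over 18 libraries. Floors cover counting error only.

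Symbols came from GENCODE M21 (53274 of 53465 identifiers matched) and promoters from RefSeq. Embryos were matched between pieces by their labels of genotype, sex and somite number. Over 16424 genes, deviations from group means correlated at 0.256 to 0.570 within 9 such pairs and at -0.283 to 0.0915 between different embryos of 1 genotype. The labels do not give litters. The members and lists were chosen with earlier results of these data known. All members are named, and from each list up to 3 called genes per direction, otherwise the 2 most abundant, were candidates for naming. Genes alike in pattern were the 10 with the highest r with the summed globins. One of them is not reported here by name. Alternatives were RLE size factors, DESeq2 1.42.0, no filter on low counts, library sizes without globins and members, somite number as covariate, Hba-a1 and Hba-a2 summed, the embryo block, and leaving out each embryo. Leaving embryos out of the blocked fit and the relations between pieces were added after the data were seen. The code was tested on simulated data.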

Additional observations from a re-analysis of the deposited data

How the results depend on the processing

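Of 721 recomputed log2 fold changes of the members, 665 kept their direction and their side of the threshold, 48 came to pass it and 8 changed sign. For Hbb-bt in the anterior genotype comparison (-0.08), leaving out 1 embryo gave -0.42 to 0.50. For Klf1 it gave -0.46 to 0.035 there (-0.23 with all), and -0.53 to 0.00012 between the pieces of controls (-0.32 with all). With the block, Klf1 changed sign between the pieces of controls without control 5 (0.105), and between those of DKO embryos without DKO 2 (-0.0418) or DKO 4 (-0.00998). The 0 members called between pieces of control embryos became 1 with the embryo block, 0 to 6 with 1 embryo left out (6 without control 2), and with the block 0, 7, 1, 0 and 0 without control embryos 1 to 5. The shares of all genes called were 33.6% with the block, 19% to 22.2% with 1 embryo left out (22.2% without control 2) and 26.1% to 30.9% with both. The 0 members called between pieces of DKO embryos became 6 with the embryo block, 1 with no filter on low counts and 0 to 4 with 1 embryo left out (4 without DKO 3), and with the block 6, 5, 5 and 6 without DKO embryos 1 to 4. The shares of all genes called were 19% with the block, 11.1% to 16.2% with 1 embryo left out (13.7% without DKO 3) and 12.5% to 19.7% with both. The share with no filter is not given here. The block changed no other call of a member. Genes called between genotypes numbered 6 anteriorly, but 287 with DESeq2, 83 with no filter, 84 with somite number as covariate and 1 to 57 with 1 embryo left out (57 without DKO 2). Posteriorly they numbered 2, but 156 with DESeq2, 14 with no filter, 7 with the covariate and 2 to 24 with 1 embryo left out (24 without DKO 2). For the difference of the effects, 0 became 7 with DESeq2 and 0 to 1 with 1 embryo left out. Between the pieces of DKO embryos, 2913 became 1728 to 2550, the lowest without DKO 1. Of 94 recomputed ratio results 6 changed sign. The anterior DKO difference of the log2 Hba-x to Hba-a ratio (-0.0208) was -0.0667 to 0.0245 with 1 embryo left out, and the posterior difference of the Hbb-bh1 to Hbb-y ratio (0.0374) was -0.0061 to 0.0857. The anterior correlation of that ratio with somite number (-0.388) was 0.111 without the 2 embryos farthest from the median. Where no construction of the alternative shows it, the cause was not tested.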

Other observations

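The beta-like locus also holds Hbb-bh0, annotated as an unprocessed pseudogene between Hbb-bh1 and Hbb-y. In DKO embryo 2 it was at 0 CPM in both pieces, and in DKO embryo 3 it was at 0.0577 CPM in the anterior and 0 CPM in the posterior piece. Control embryo 5 had 0.713 CPM anteriorly and 0 CPM posteriorly. In the other 6 embryos both pieces had it, at 1.17 to 5.22 CPM, the highest value being in posterior DKO embryo 4. Between genotypes, edgeR gave Hbb-bh0 an adjusted p of 0.872 in the anterior and 0.949 in the posterior piece. Hbb-y was at 422 to 993 CPM in the libraries of DKO embryos 2 and 3.

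The share of Hbb-bt in the summed Hbb-bt and Hbb-bs counts was also compared between the pieces of each embryo. It was 22.5% and 28.5% in the anterior and posterior pieces of control embryo 1, 14% and 9.0% in control 2, 16% and 13.9% in control 3, 22.5% and 25.6% in control 4 and 30.4% and 36.9% in control 5. In DKO embryos 1 to 4 the pairs were 31.7% and 23.1%, 39.9% and 33.4%, 25.4% and 26.1%, and 15.4% and 13.5%. Over the 9 embryos r was 0.828 (exact permutation p = 0.00611, adjusted 0.0153) and rho 0.750 (exact permutation p = 0.0255, adjusted 0.0637), and r was 0.975 without DKO 1 and DKO 2. The share of Hba-a1 had r = 0.639 (exact permutation p = 0.0928, adjusted 0.152) and rho = 0.117 (exact permutation p = 0.776, adjusted 0.948). Without control embryo 3 its r was -0.29, and without the 2 farthest embryos, controls 2 and 3, it was -0.07, so that the relation rests on control embryo 3. These shares depend on how the reads common to both copies were assigned.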
